A study of Mus musculus with 6 samples.

Results

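The 9 genes described here encode the potassium channels, water channels and dystroglycan anchor associated with Müller glia: *Kcnj10*, *Kcnj16*, *Kcnj2*, *Aqp4*, *Aqp1*, *Dag1*, *Dmd*, *Sntb1* and *Utrn*. They were listed by name and function, with no threshold on their values, and all 9 were found by symbol among the 55421 genes of the count table. The data are RNA-seq counts of whole retinas from 2-month-old mice, 3 control retinas and 3 *Yap* cKO retinas, which the study's methods describe as independent biological replicates. Control animals (YR612, YR613 and YR615) were Yap flox/flox. *Yap* cKO animals (YR711, YR713 and YR714) were Yap flox/flox and carried RaxCreERT2, a tamoxifen-inducible Cre. Animals of both groups received 4-hydroxytamoxifen (4OH-T) at postnatal days 10 and 14. Within the eye this Cre acts, according to the study's description of the line, in Müller glia and in the non-pigmented epithelium of the ciliary body, so that the other cells of a *Yap* cKO retina still carry *Yap*. The controls received 4OH-T but had no Cre, and effects of Cre activity and of *Yap* loss cannot be told apart by this design.

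Müller glia span the retina and take up the potassium that active neurons release. They pass it on to the vitreous and to blood vessels through inwardly rectifying potassium channels, mainly the *Kcnj10* product, and water moves along with it through aquaporin channels, mainly the *Aqp4* product. Both channels are concentrated in glial end feet by the dystrophin-associated complex, in which dystroglycan (*Dag1*) spans the membrane, dystrophin (*Dmd*) or utrophin (*Utrn*) links it to the cytoskeleton, and syntrophins such as the *Sntb1* product hold channel tails through a PDZ domain. YAP is a transcriptional co-activator of the Hippo pathway that acts through TEAD factors, and the question asked of the data is whether these genes differed in level when it was deleted in Müller glia.

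The channel tails that syntrophin-type PDZ domains bind are encoded at the very end of the coding sequence. They are shown for the inward rectifiers *Kcnj10* and *Kcnj2* because they are the physical tie between the channels and the anchor whose genes are compared below. Each line gives the last 30 coding bases before the stop codon (GRCm38, GENCODE M21 annotation, plus strand, last exon), with the last 3 codons, which encode the PDZ-binding end, in capitals. *Kcnj10* occupies chr1:172370028-172370057 and *Kcnj2* chr11:111073038-111073067 in this stretch.
Kcnj10: agtgcccttagtgtgcgcatcAGCAACGTC
Kcnj2: cccaggcccttaaggcgagaaTCGGAGATA

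Total counts per retina ranged from 24261799 to 35067068. *Yap1* stood at 9.48, 9.52 and 9.83 TPM (the share of a retina's transcripts scaled to a fixed total, computed from the counts and each gene's exonic length) in the controls YR612, YR613 and YR615. In the *Yap* cKO retinas YR711, YR713 and YR714, in this order throughout, it stood at 3.99, 3.76 and 3.94 TPM, so the labels and the targeted gene matched in every retina. The 10 Müller glia markers (such as *Rlbp1* and *Glul*) were all measured, and their summed level was 5931 to 6366 TPM in controls and 5576 to 6253 TPM in *Yap* cKO retinas. None of the 10 passed the test described below. With the correction for gene length described below 2 did, *Rlbp1* downward (log2 fold change -0.29, edgeR adjusted p = 0.0453) and *Slc6a11* upward (0.32, adjusted p = 0.0381). In 7 of 15 alternative fits 2 of the markers passed, and in these fits 459 to 1865 genes passed in all. Summed rod markers, at 60442 to 64537 TPM in controls and 57168 to 61343 TPM in *Yap* cKO retinas, marked the tissue as retina. The sums of several other marker lists did not overlap between the groups, although their members did not all move alike. Summed connective tissue fibroblast markers were 39.9 to 46.5 TPM in controls and 6.49 to 9.91 TPM in *Yap* cKO retinas, with 1 of the 8 at 0 in every retina. Of the 5 fibroblast markers tested 3 fell and 2 did not pass. Summed ciliary non-pigmented epithelium markers were 124 to 134 TPM in controls and 63.0 to 86.3 TPM in *Yap* cKO retinas. Of these 8 markers 2 fell and 1, *Slc4a4*, rose (edgeR adjusted p = 0.0498), and the mean of *Optc* alone went from 48.0 to 4.56 TPM. Summed melanin pigment cell markers were 75.0 to 81.9 TPM and 17.9 to 50.6 TPM, with 6 of the 7 below every control in all *Yap* cKO retinas and 1 past the test. Of all tested genes, 9.04% stood below every control in all *Yap* cKO retinas.

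Of the 9 genes, 1 changed. *Sntb1*, which encodes beta-1-syntrophin, rose 1.51-fold in *Yap* cKO retinas, and the other 8 did not pass an adjusted p of 0.05 (quasi-likelihood test of edgeR, Benjamini-Hochberg adjusted over 16575 genes). All 9 passed the filter on low counts. The background for this count is 1.49% of all tested genes past the same threshold, of which 0.501% of the tested genes were higher and 0.989% lower in *Yap* cKO retinas. *Sntb1* also reached the study's minimums of 1.5 for the fold change and 5 TPM for the mean of a group, and 0.796% of tested genes met all of these criteria. Log2 fold changes were positive for 8 genes and negative for *Aqp4*, with a median of 0.36 against 0.0017 for all tested genes. In 5 genes (*Kcnj10*, *Kcnj16*, *Kcnj2*, *Aqp1* and *Sntb1*) every *Yap* cKO retina was above every control retina in TPM, which held for 15.2% of all tested genes. In none of the 9 was every *Yap* cKO retina below every control retina, an arrangement found in 9.04% of tested genes. In the other 4 genes the groups overlapped.

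**Figure D1:**
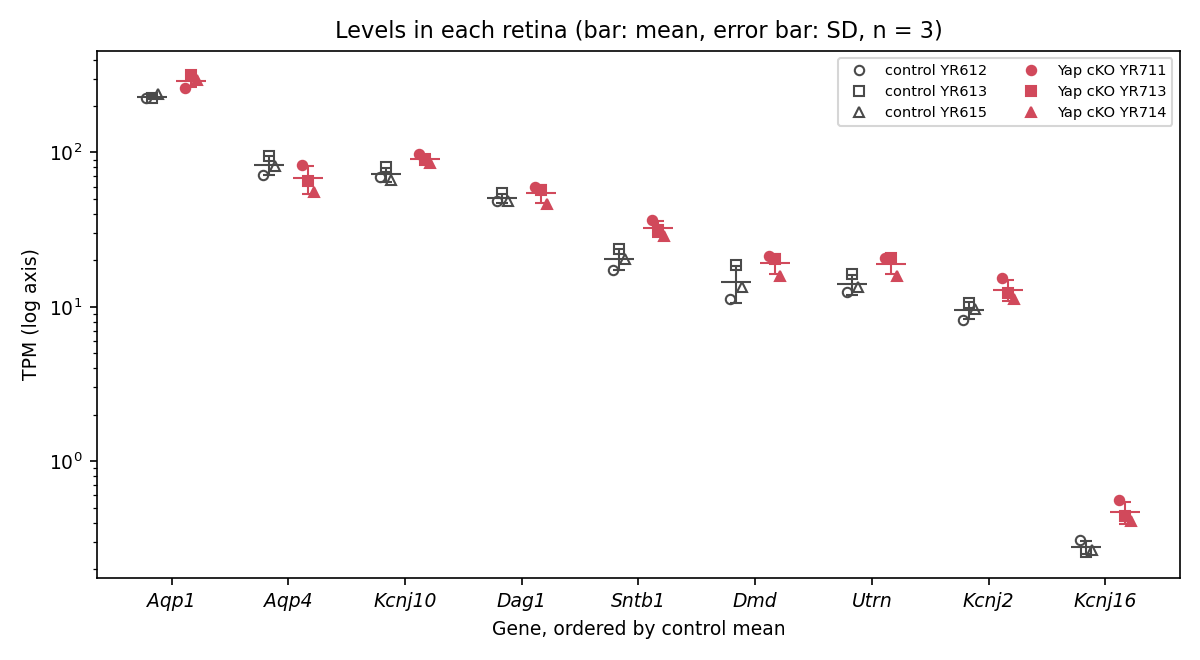
Level of each of the 9 genes in each retina, in TPM on a log axis, with controls as open and *Yap* cKO retinas as filled symbols; bars are means and error bars SD (n = 3). *Aqp1* is highest at 224 to 316 TPM and *Kcnj16* lowest at 0.259 to 0.557 TPM, and the groups do not overlap for *Sntb1*, *Kcnj10*, *Kcnj2*, *Aqp1* and *Kcnj16*.

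One trend across all genes touches these results. The log2 fold change between the groups followed exonic gene length across tested genes (Spearman's rho = 0.391, across genes, which are not independent replicates), and the 9 genes range from 2627 bases (*Aqp1*) to 23801 bases (*Dmd*) against a median of 4132 bases for all tested genes. The fit was therefore repeated with each retina corrected for length by a loess curve, which brought the rho to 0.035. Under this correction 2.77% of tested genes passed an adjusted p of 0.05, and of the 9 genes 2 did, *Sntb1* and *Aqp1*. The median log2 fold change of the 9 genes was then 0.25. What gave rise to the length trend was not tested. Since these are whole retinas, fewer cells of a type and less RNA per cell cannot be told apart for any of the genes.

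The potassium channels are taken first. *Kcnj10* (ENSMUSG00000044708, chr1:172341210-172374085, plus strand, GRCm38), the principal inward rectifier of Müller glia, stood at 69.0, 80.8 and 66.3 TPM in the controls and at 97.9, 89.6 and 85.9 TPM in the *Yap* cKO retinas. Every *Yap* cKO retina was thus above every control retina, and the group means were 72.0 ± 7.68 and 91.1 ± 6.18 TPM (SD, n = 3 each). A log2 fold change of 0.28 ± 0.086 (SE) did not pass by edgeR's quasi-likelihood test (adjusted p = 0.126). Its 95% interval ran from 1.06-fold to 1.39-fold, and with the length correction the value was 0.25 (adjusted p = 0.0963). The gene passed only when control YR613, the highest control, was left out (adjusted p = 0.0419).

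*Kcnj2* (ENSMUSG00000041695, chr11:111066164-111076821, plus strand), a strong inward rectifier found in muscle, endothelium and glia, stood at 8.27, 10.6 and 9.73 TPM in the controls. In the *Yap* cKO retinas it stood at 15.3, 12.2 and 11.3 TPM. The groups did not overlap, although the lowest *Yap* cKO retina was close to the highest control. Their log2 fold change was 0.38 ± 0.13 (edgeR adjusted p = 0.148, 1.07-fold to 1.59-fold), and it was 0.34 with the length correction. Summed endothelial markers, at 204 to 218 TPM in controls and 177 to 240 TPM in *Yap* cKO retinas, overlapped between the groups. Of these 8 markers none passed, and 4 had a positive and 4 a negative log2 fold change. In 2 of them every *Yap* cKO retina was above every control, which held for 15.2% of all tested genes. Their part in the level of *Kcnj2* was not tested.

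*Kcnj16* (ENSMUSG00000051497, chr11:110968033-111027968, plus strand), whose product is silent on its own and joins the *Kcnj10* product in mixed channels, was close to the detection limit. Counts were 8, 7 and 8 in the controls and 14, 15 and 11 in the *Yap* cKO retinas, or 0.259 to 0.308 TPM and 0.409 to 0.557 TPM. All *Yap* cKO retinas were above all controls, but at these counts the 95% interval of the fold change reached from 0.970 to 2.65 (log2 fold change 0.68 ± 0.32, edgeR adjusted p = 0.256). Within each retina *Kcnj16* stood at 0.0032 to 0.0057 of the level of *Kcnj10* per unit length. *Kcnj16* and *Kcnj2* lie side by side on chromosome 11, on the same strand, and share no exon bases. They differed by far in level.

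The water channels differed in direction from one another. *Aqp4* (ENSMUSG00000024411, chr18:15389496-15410982, minus strand), the aquaporin of Müller glia and astrocytes, stood at 71.5, 95.5 and 82.2 TPM in the controls and at 83.0, 65.3 and 55.2 TPM in the *Yap* cKO retinas. YR711 lay within the control range, while YR713 and YR714 lay below all controls. The means were 83.1 and 67.8 TPM (n = 3 each), and the log2 fold change of -0.35 ± 0.14 did not pass (edgeR adjusted p = 0.191, 0.634-fold to 0.972-fold). With the length correction it was -0.40 (adjusted p = 0.0899). It was the one gene of the 9 with a negative value, and it stayed negative in each of 15 alternative fits. Summed astrocyte markers, at 109 to 127 TPM in controls and 111 to 120 TPM in *Yap* cKO retinas, overlapped between the groups. Of these 6 markers 1 passed, *Aldh1l1*, downward (log2 fold change -0.79, edgeR adjusted p = 0.00437). Another 2, *S100b* and *Igf1*, stood above every control in all *Yap* cKO retinas, which held for 15.2% of all tested genes. Their part in the level of *Aqp4* was not tested.

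*Aqp1* (ENSMUSG00000004655, chr6:55336432-55348555, plus strand) had the highest level of the 9 genes. In the eye it is known from photoreceptors, some amacrine cells and the non-pigmented ciliary epithelium more than from Müller glia. It stood at 224, 227 and 238 TPM in the controls and at 262, 316 and 297 TPM in the *Yap* cKO retinas. Every *Yap* cKO retina was above every control, with means of 229 ± 7.60 and 292 ± 27.4 TPM. Between the groups the log2 fold change was 0.29 ± 0.089 (edgeR adjusted p = 0.126, 1.06-fold to 1.40-fold). It passed with the length correction, at 0.37 (adjusted p = 0.0262), *Aqp1* being the shortest of the 9 genes. The rod markers given above overlapped between the groups and the sum of the ciliary epithelium markers was lower in *Yap* cKO retinas, with 2 of the 8 markers lower and 1 higher by the test. Their part in the level of *Aqp1* was not tested.

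In the anchor, *Dag1* (ENSMUSG00000039952, chr9:108204634-108263958, minus strand), which encodes both subunits of dystroglycan, stood at 48.2, 54.3 and 48.4 TPM in the controls and at 60.2, 57.4 and 46.2 TPM in the *Yap* cKO retinas. YR714 was below all controls and YR711 and YR713 above them. Its log2 fold change was 0.06 ± 0.097 (edgeR adjusted p = 0.748), with an interval from 0.895-fold to 1.21-fold that lay on both sides of no change. With the length correction the value was -0.00058.

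*Sntb1* (ENSMUSG00000060429, chr15:55636388-55906949, minus strand), the adaptor that binds dystrophin family proteins on one side and channels on the other, stood at 17.2, 23.8 and 20.6 TPM in the controls. It stood at 36.4, 31.3 and 28.9 TPM in the *Yap* cKO retinas. All 3 *Yap* cKO retinas were above all 3 controls, with means of 20.5 ± 3.28 and 32.2 ± 3.85 TPM. The log2 fold change was 0.59 ± 0.11 (edgeR adjusted p = 0.0421), or 1.51-fold with a 95% interval from 1.26 to 1.80. It was 0.56 with the length correction (adjusted p = 0.0186, 1.48-fold). The call depended on single retinas. Among the controls, leaving out YR612 gave an adjusted p of 0.170 and leaving out YR615 gave 0.185. Among the *Yap* cKO retinas, leaving out YR711 gave 0.0955 and leaving out YR713 gave 0.166, while the log2 fold change stayed between 0.50 and 0.69. With the sex of the animals as a covariate it was 0.63 (adjusted p = 0.0513).

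*Dmd* (ENSMUSG00000045103, chrX:82948870-85206141, plus strand) encodes full-length dystrophin and shorter products from internal promoters, one of which is the main form in Müller glia. It stood at 11.2, 18.6 and 13.5 TPM in the controls and at 21.3, 20.4 and 15.9 TPM in the *Yap* cKO retinas, and control YR613 was above *Yap* cKO YR714. The log2 fold change was 0.36 ± 0.16 (edgeR adjusted p = 0.238) and -0.0038 with the length correction, so the direction of this long gene rested on the scaling. The counts cover all exons, 23801 bases, while the annotated coding transcripts of *Dmd* run from 1858 to 14910 bases, so they do not separate short from full-length dystrophin and the TPM understates the number of transcripts.

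*Utrn* (ENSMUSG00000019820, chr10:12382188-12869365, minus strand), the close relative of dystrophin, had nearly the same TPM as *Dmd*. It stood at 12.4, 16.4 and 13.3 TPM in the controls and at 20.9, 20.6 and 15.7 TPM in the *Yap* cKO retinas. As with *Dmd*, control YR613 was above *Yap* cKO YR714 and the groups overlapped. The log2 fold change was 0.38 ± 0.12 (edgeR adjusted p = 0.130) and 0.09 with the length correction (adjusted p = 0.461), on 17108 exonic bases. Its annotated coding transcripts run from 660 to 12382 bases, so the similar TPM of *Dmd* and *Utrn* does not show equal numbers of transcripts. Skeletal muscle, in which *Dmd*, *Utrn* and *Sntb1* are known to be high, had 8 of its 10 markers under 1 TPM in every retina, and their sum was 15.2 to 15.8 TPM in controls and 9.61 to 13.1 TPM in *Yap* cKO retinas.

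**Figure D2:**
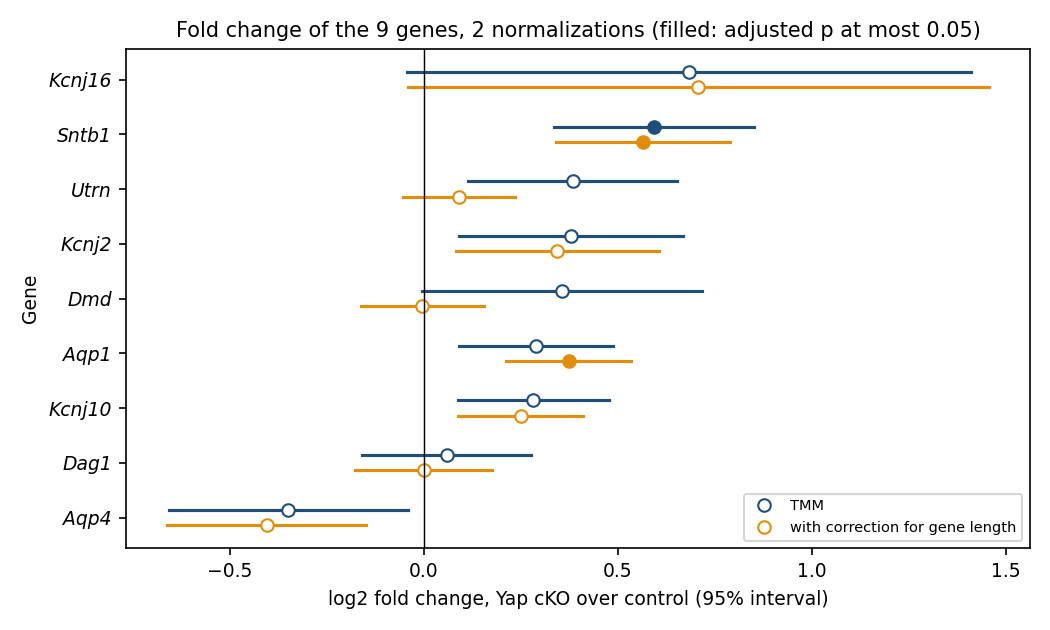
Log2 fold change of each gene, *Yap* cKO over control, with its 95% interval, from the TMM fit (blue) and with each retina corrected for gene length (orange); filled points passed an adjusted p of 0.05. *Sntb1* passes in both fits and *Aqp1* with the correction, at 0.37, and the long genes *Dmd* and *Utrn* move from 0.36 and 0.38 to -0.0038 and 0.09.

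The order of levels, compared per length in TPM, was similar in both groups. In controls *Aqp1* was highest, followed by *Aqp4* and *Kcnj10*, whose values overlapped, then *Dag1*, then *Sntb1*, *Dmd* and *Utrn*, whose neighbours overlapped, then *Kcnj2* and *Kcnj16*. In *Yap* cKO retinas *Kcnj10* stood above *Aqp4* without overlap, *Aqp4* overlapped with *Dag1*, and *Sntb1* stood above *Dmd* and *Utrn* without overlap.

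Ratios between genes of the set within a retina do not depend on library size. The ratio of *Kcnj10* to *Aqp4*, the potassium channel to the water channel of the same end feet, was 0.965, 0.846 and 0.807 in the controls and 1.18, 1.37 and 1.55 in the *Yap* cKO retinas. These retinas did not overlap, and the means were 0.873 ± 0.082 and 1.37 ± 0.188 (SD, n = 3 each), a 1.56-fold difference. The exonic lengths of the pair are 5407 and 6233 bases. The exact two-sided permutation test gave p = 0.1, the smallest that 3 against 3 retinas allow, and 0.133 after Benjamini-Hochberg adjustment over the 4 ratios computed.

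The ratio of *Sntb1* to *Dag1*, the adaptor to the membrane protein of the anchor, was 0.356, 0.437 and 0.424 in the controls. It was 0.605, 0.544 and 0.625 in the *Yap* cKO retinas, again without overlap and 1.46-fold higher (exact permutation p = 0.1, adjusted 0.133). *Kcnj16* over *Kcnj10* was 1.32-fold higher on the few counts of *Kcnj16* (exact permutation p = 0.1, adjusted 0.133). *Utrn* over *Dmd* was 0.993 ± 0.115 in controls and 0.995 ± 0.015 in *Yap* cKO retinas (exact permutation p = 0.9). The lowest of these ratios was 0.881, in control YR613, and the highest 1.11, in control YR612. They compare levels per exonic base and not numbers of transcripts.

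**Figure D3:**
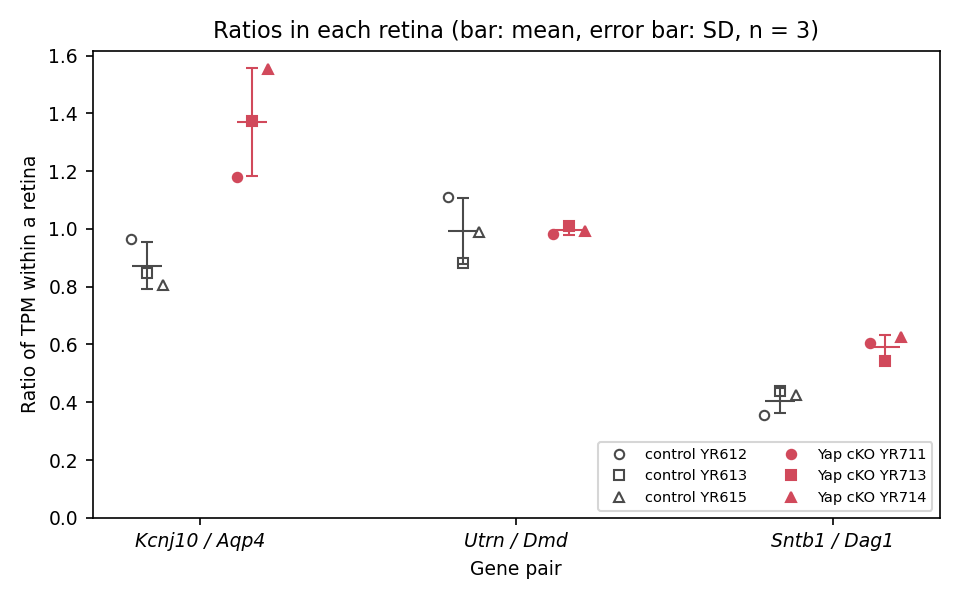
Ratio of TPM values within each retina for 3 gene pairs, with controls as open and *Yap* cKO retinas as filled symbols; bars are means and error bars SD (n = 3). *Kcnj10* over *Aqp4* and *Sntb1* over *Dag1* are higher in all 3 *Yap* cKO retinas, and *Utrn* over *Dmd* stays close to 1 in both groups.

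The pathway around the 9 genes was followed through 6 lists. Of the inward rectifier family, 13 of 15 genes were tested and none passed in either direction (median log2 fold change 0.20). The highest besides the described genes were *Kcnj14*, at 621 ± 91.0 TPM in controls and 531 ± 33.1 TPM in *Yap* cKO retinas, and *Kcnj9*, a G protein-gated channel, at 86.3 ± 8.92 and 110 ± 5.29 TPM. By total level per length, *Kcnj14* therefore stood above *Kcnj10*, *Kcnj2* and *Kcnj16* in these whole retinas.

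Of the aquaporin family, 7 of 12 genes were tested, none passed upward and 1 passed downward (median -0.35). With the length correction 3 passed, 1 of them, *Aqp1*, upward, while 459 genes passed in all. *Aqp5*, a water channel of secretory and corneal epithelium, fell from 3.91, 3.93 and 3.96 TPM to 1.87, 1.02 and 1.07 TPM (log2 fold change -1.66 ± 0.23, edgeR adjusted p = 0.0117). It was under the level criterion of 5 TPM. *Aqp6*, at 6.62 ± 1.31 and 7.46 ± 1.57 TPM, and *Aqp11*, at 6.25 ± 0.232 and 6.30 ± 1.23 TPM, were the next highest after *Aqp1* and *Aqp4*. Apart from *Aqp1* and *Aqp4*, the family was thus low in these retinas.

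Of the dystrophin-associated complex, 15 of 19 genes were tested, 1 passed upward, which was *Sntb1*, and none downward. The median log2 fold change was 0.28 and it was -0.00058 with the length correction, under which 1 gene passed upward and 1 downward. Without control YR613, 6 genes of the complex passed, 5 of them upward, while 1490 genes passed in all. None did when YR612 or YR615 of the controls was left out, where 56 and 49 genes passed in all. None did either without YR711 or YR713 of the *Yap* cKO retinas, where 156 and 93 passed in all. These counts thus moved with the number of calls over all genes. *Sgcb*, a sarcoglycan and one of the highest genes of the complex, stood at 46.0 ± 4.68 TPM in controls and 42.4 ± 2.57 TPM in *Yap* cKO retinas, above *Sntb1* per length in each group.

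The enzymes that put the laminin-binding sugar chain on dystroglycan had 16 of 17 listed genes tested and none passed in either direction (median log2 fold change 0.055). None passed under any of the 15 alternative fits. The highest by the mean of all retinas were *Dpm3*, at 68.4 ± 17.2 and 55.2 ± 23.6 TPM, and *Dpm2*, at 62.2 ± 6.03 and 58.1 ± 1.70 TPM, both subunits of the enzyme that makes the mannose donor. Of the extracellular ligands of dystroglycan all 7 were tested and none passed (median 0.047). *Egflam*, which encodes pikachurin of the photoreceptor ribbon synapse, stood at 221 ± 9.30 TPM in controls and 238 ± 19.2 TPM in *Yap* cKO retinas, and *Agrn* (agrin) at 18.7 ± 0.986 and 21.4 ± 2.37 TPM.

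**Figure D4:**
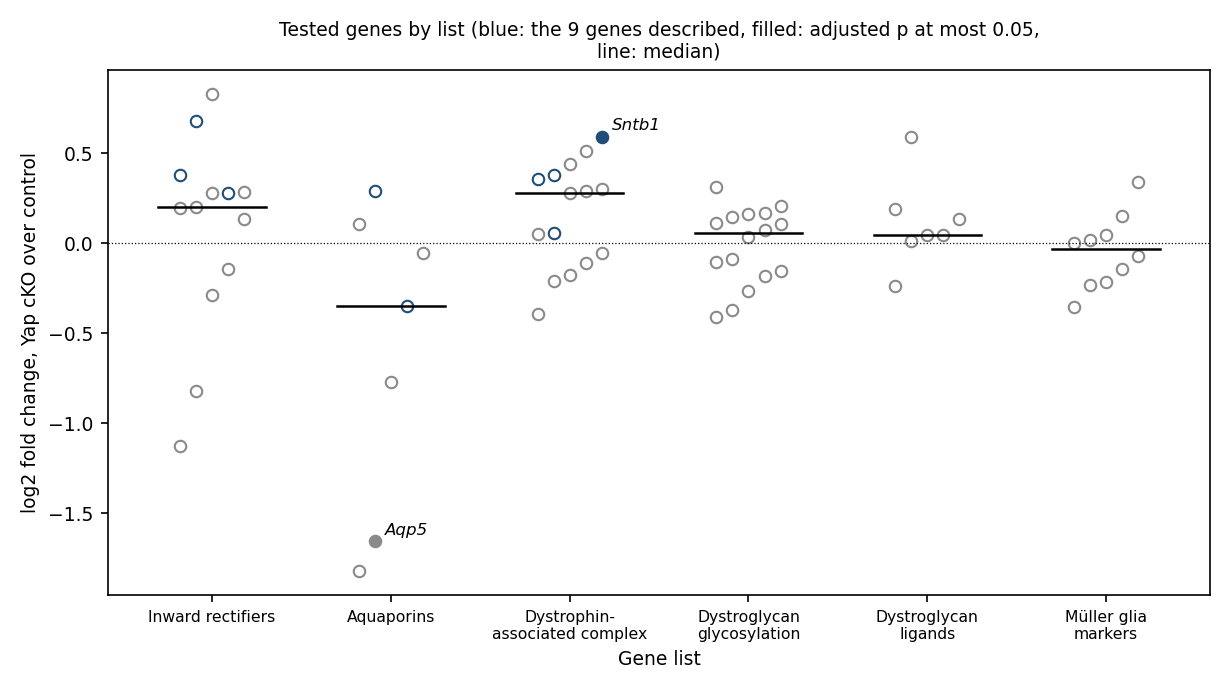
Log2 fold change, *Yap* cKO over control, of every tested gene of 5 of the pathway lists and of the Müller glia markers; blue points are the genes described here, filled points passed an adjusted p of 0.05 and lines are list medians. *Sntb1* is the one filled point above 0, and *Aqp5* is the one filled point below it, while no Müller glia marker is filled.

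Of 11 genes of glial volume regulation and ion transport, all were tested, none passed upward and 2 passed downward (median -0.23), among them *Gja1*. With the length correction 4 passed, 1 of them upward, while 459 genes passed in all. With library size only 4 passed, 1 of them upward, while 263 genes passed in all. With the likelihood ratio test 5 did, 1 of them upward, while 1025 passed in all. None of the list passed when YR612 or YR615 was left out, where 56 and 49 genes passed in all. *Gja1*, the gap junction gene that encodes connexin 43, stood at 9.15, 7.84 and 8.19 TPM in the controls and fell to 1.42, 3.78 and 1.95 TPM in the *Yap* cKO retinas (log2 fold change -1.86 ± 0.29, edgeR adjusted p = 0.0187). Every *Yap* cKO retina was below every control. *Gja1* no longer passed when YR612 or YR615 was left out, and *Aqp5* was lost without YR612, YR615 or YR713. *Gja1* is known from fibroblasts and ciliary epithelium as well as from glia. The sums of the fibroblast and ciliary epithelium markers given above were lower in the same retinas, though not every marker was. Summed lens and cornea epithelium markers overlapped, at 2.65 to 15.6 TPM in controls and 2.85 to 3.91 TPM in *Yap* cKO retinas. Of these 8 markers 3 were tested, all 3 with a negative log2 fold change, and none passed. The part of these lists in the values of *Gja1* and *Aqp5* was not tested. The highest genes of this list were *Atp1b2*, a sodium pump subunit, at 1239 ± 62.4 and 1411 ± 92.1 TPM, and *Mlc1*, a membrane protein of astrocyte and Müller end feet, at 216 ± 5.66 and 192 ± 2.94 TPM.

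Some genes elsewhere in the genome had nearly the same pattern over the 6 retinas. Likeness was measured as the root mean square difference of log2 CPM (counts scaled to a common library size), each gene centred on its mean, over 11993 genes with a mean of at least 5 TPM. Among the 3 closest to *Kcnj10* were *Slit1* (0.019) and *Dhx33* (0.030), against a median difference of 0.204 over all these genes. Closest to *Aqp4* were *Gm13029* (0.058), *B130034C11Rik* (0.072) and *Nectin3* (0.077), against a median of 0.296. None of these genes passed an adjusted p of 0.05 between the groups. The differences listed are among the smallest of 11993, so they lie below the median by selection. Whether the likeness exceeds chance was not tested.

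Promoter windows were searched for the TEAD-type motif GGAATG on both strands (CATTCC on the other), in RefSeq windows of 300 bases around each annotated start. None of the 12 windows of 7 of the genes held it, against 14.7% of 32851 windows of all genes. *Sntb1* and *Aqp4* had no window and were not searched. These letters were not in these windows, and nothing follows from this about binding elsewhere.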

How the data were processed

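The authors aligned stranded paired-end reads of the 6 retinas to GRCm38 with STAR 2.7.3a (per the labels) and counted fragments per gene over exons with featureCounts 1.6.2, strand setting 2. The file header names Ensembl release 98, while the study's text names another release. The deposited values are raw counts, and exonic length is given beside them. Of 55421 genes, 55154 received a symbol from the reference. No member shares exon bases with a gene on its own strand.

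Counts were filtered with filterByExpr, normalized by TMM and tested with the quasi-likelihood test of edgeR 4.0.16 (R 4.3.3), with Benjamini-Hochberg adjustment over 16575 genes. The common dispersion was 0.0126. SE values were derived from the F statistic. Other fits used limma 3.58.1 and DESeq2 1.42.0. The length correction fitted a loess curve (span 0.3) per retina. The fit was tested on simulated data. Log2 CPM used a prior count of 2.

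Named genes were all 9 members and, from each pathway list, those whose adjusted p was 0.05 or lower and the 2 non-members with the highest mean TPM; some genes that this rule names are not reported here. The members and lists were chosen with earlier results of these data known. Alternatives on the lists, their called genes and the ratios were added after seeing the data. *Xist* and *Ddx3y* counts gave 1 female and 2 males among controls and 2 females and 1 male among *Yap* cKO animals.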

Additional observations from a re-analysis of the deposited data

How the results depend on the processing

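The fold changes of the 9 genes were computed under 15 alternatives each, 135 values, of which 115 kept their direction and their side of the threshold, 10 passed newly, 5 no longer passed and 5 changed sign. The sign changes were those of *Dag1* (-0.00058 with the length correction, -0.00054 with it and the likelihood ratio test, and -0.013 to 0.15 when single retinas were left out, negative without *Yap* cKO YR711) and *Dmd* (-0.0038 and -0.0039 with the length correction by either test). The number that reached an adjusted p of 0.05 was 1 in the TMM fit, with other size factors, with DESeq2, with edgeR's likelihood ratio test and with limma-voom. Over all genes 247 passed in the TMM fit, 892 with DESeq2 and 1025 with the likelihood ratio test. Without a filter on low counts the number among the 9 was 4 (*Aqp4*, *Dmd*, *Sntb1* and *Utrn*), while 1865 genes passed in all. It was 2 with the length correction (459 genes in all) and 0 with sex as a covariate (151 in all). With the length correction and the likelihood ratio test it was 3 (*Aqp4*, *Aqp1* and *Sntb1*, 1029 in all). Leaving out single retinas gave 0 to 4. The 4 came without control YR613 (*Kcnj10*, *Dmd*, *Sntb1* and *Utrn*, with 1490 genes in all). There were 2 without *Yap* cKO YR714 (*Sntb1* and *Utrn*, with 992 genes in all). Without any of the other 4 retinas there were 0, with 49 to 156 genes in all. The number meeting all criteria was 1, and 0 with library size only and with the length correction by either test, where the fold change of *Sntb1* fell short of 1.5, and 0 with sex as a covariate, where its adjusted p was 0.0513. Leaving out single retinas gave 0 to 1. The cause of these differences was not tested. Fold differences in the ratios without single retinas were 1.46 to 1.68 for *Kcnj10* over *Aqp4*, 1.37 to 1.52 for *Sntb1* over *Dag1*, 1.21 to 1.42 for *Kcnj16* over *Kcnj10* and 0.949 to 1.07 for *Utrn* over *Dmd*, which was 0.949 without control YR613 and 0.998 without *Yap* cKO YR713. No paired analysis was possible because the groups share no replicate numbers. Depth limits *Kcnj16* alone among the 9 genes, with at most 15 counts in a retina.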

Other observations

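*Kcnj9* and *Kcnj10* lie close together on chromosome 1 (chr1:172320501-172329318 and chr1:172341210-172374085, GRCm38). In both genes every *Yap* cKO retina was above every control retina, which held for 15.2% of all tested genes. Their log2 fold changes of 0.29 and 0.28 did not pass (edgeR adjusted p = 0.130 and 0.126). A link between them was not tested.

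*Kcnj13*, the inward rectifier of the retinal pigment epithelium, was picked out after its values were seen. It stood at 16.2, 21.4 and 18.7 TPM in the controls and at 4.19 (YR711), 8.87 (YR713) and 19.9 TPM (YR714) in the *Yap* cKO retinas (edgeR adjusted p = 0.283). The summed level of the 7 pigment epithelium markers was 662 to 731 TPM in the controls and 204, 375 and 711 TPM in the same *Yap* cKO retinas, in the same order.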
